A study of Mus musculus with 18 samples.

Results

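The genes described here encode 1 enzyme for each of the 10 steps of glycolysis: Hk2, Gpi1, Pfkl, Aldoa, Tpi1, Gapdh, Pgk1, Pgam1, Eno1 and Pkm. They were found by symbol among the 55487 genes of the counts table, all 10 were present, and all 10 were among the 15247 genes with enough reads to be tested. Aldoa had 2 identifiers, with 634533 and 501 reads in total, and the one with more reads was used. That choice was thus made by total count, and the 10 genes were chosen by their step in the pathway at a time when fold changes of both agonist comparisons in these samples had been seen. Their values below are therefore descriptions of these libraries, and their counts beside those of all genes are no independent support. The RNA came from mouse small intestinal organoids, which are cultures grown from crypts that hold the epithelium alone. They were grown from female wild-type C57BL/6 mice, and the study's mice were 8 to 12 weeks old. After 4 passages the organoids were given 1 µM norepinephrine or its HCl vehicle, or 1 µM UK 14,304 or its DMSO vehicle, for 4 days. Norepinephrine stimulates both α- and β-adrenergic receptors, and UK 14,304 is a synthetic agonist of the α2-adrenergic receptor. The titles carry a number after the letter m, read here as the mouse. On that reading the 4 HCl vehicle, 5 norepinephrine, 4 DMSO vehicle and 5 UK 14,304 samples came from mice 1 to 5. Mouse 5 then had no vehicle sample. Such cultures lack nerves and blood vessels, and each agonist was used at 1 dose and 1 time.

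Glycolysis splits glucose into pyruvate in the cytosol and yields ATP and NADH. Its first steps use ATP to trap and phosphorylate the sugar, aldolase then cuts it into a pair of 3-carbon sugars, and the last steps recover ATP. The hexokinase, phosphofructokinase and pyruvate kinase steps are in effect irreversible and are the points at which flux is controlled, while the other enzymes work close to equilibrium. In the intestinal epithelium, glycolysis is known to be active in crypts, and many of its genes are known targets of the hypoxia-inducible factors. Messenger RNA was measured here, not enzyme activity or flux.

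Each library held 21866149 to 27850373 counted reads. The 5 epithelial markers were high in all samples, with Epcam at 655 RPKM (reads-per-million over the kilobases of exon), and the 15 markers of fibroblasts, muscle, vessels, blood cells and nerves summed to 2.67 to 4.58 normalized counts-per-million (CPM), with Dcn at 0. Between 0.313 and 3.06% of reads fell on 1 ribosomal RNA gene. In 7 libraries this share was over 1%, among them DMSO vehicle mice 1, 2 and 3 but only mouse 1 of the UK 14,304 samples. Libraries also differed in how their levels moved with the GC content of the transcript. This slope, in log2 units per 10 percentage points of GC, was highest in norepinephrine mouse 4 (0.19) and lowest in UK 14,304 mouse 4 (-0.22). The 10 genes lay between the 50.6th and 90.6th percentiles of GC content among the tested genes, with Pgk1 lowest and Pkm highest.

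On GRCm38 the genes lie on 7 chromosomes. Hk2 (ENSMUSG00000000628), Tpi1 (ENSMUSG00000023456) and Gapdh (ENSMUSG00000057666) are at chr6:82725025-82774454, chr6:124810586-124814296 and chr6:125161715-125166467, all on the minus strand. Gpi1 (ENSMUSG00000036427) and Aldoa (ENSMUSG00000030695) are at chr7:34201330-34230336 and chr7:126795234-126800751, and Pfkl (ENSMUSG00000020277) is at chr10:77986947-78010083, also on the minus strand. On the plus strand are Pgk1 (ENSMUSG00000062070) at chrX:106187100-106203699, Pgam1 (ENSMUSG00000011752) at chr19:41911923-41918660, Eno1 (ENSMUSG00000063524) at chr4:150236721-150248879 and Pkm (ENSMUSG00000032294) at chr9:59656368-59679375. Counts cover the merged exons of each gene, untranslated parts included.

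Levels per length were compared first, since they show which enzymes the counts describe well. Aldoa, which cuts fructose 1,6-bisphosphate, was highest at 492 ± 88.8 RPKM (SD, n = 18). Tpi1, which interconverts the products of that cut, followed at 362 ± 44.5 (SD, n = 18). Gpi1 and Pkm stood at 199 ± 29.7 and 197 ± 29.9 (SD, n = 18). Gpi1 was above Pkm in 12 of 18 samples, so this pair did not differ beyond its spread. Pfkl measured 62.3 ± 9.66, Eno1 51.8 ± 8.18 and Hk2 18.7 ± 1.70 (SD, n = 18). Pgk1 was at 15.9 ± 2.27, Pgam1 at 13.9 ± 1.43 and Gapdh last at 7.21 ± 1.29 (SD, n = 18). Each of the other neighbours in this order kept its place in at least 17 of 18 samples.

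The low level of Gapdh, which oxidises glyceraldehyde 3-phosphate and is known as one of the most abundant messages of most cells, was measured on few countable reads. Reads that fit more than 1 place in the genome were left out. In the annotated transcripts of GRCm38, 90.4% of the 50-base words of the main Gapdh transcript, the length of 1 read, also occurred in another gene, and 206 of the 222 genes that shared them were pseudogenes. The word that occurred in most of them is shown because no read of that sequence could be assigned to Gapdh. It spans bases 507 to 556 of the transcript, inside the coding sequence, and is present in 84 other genes.
Gapdh word: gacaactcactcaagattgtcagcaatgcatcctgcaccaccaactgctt

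The same measure was 72.2% for Eno1, 68.0% for Pgk1, 41.5% for Pgam1, 34.4% for Pkm and 25.3% for Gpi1. It was 13.5% for Aldoa, 7.51% for Tpi1, 0.0543% for Pfkl and 0 for Hk2. Over all 18 libraries 13205 reads were counted for Gapdh, 15869 for Pgk1 and 12208 for Pgam1, against 634533 for Aldoa. Levels per length of the genes with shared words are therefore understated by an unknown amount, and the shared part was largest for Gapdh, Eno1, Pgk1 and Pgam1. The fold changes of genes with shared words rest on the part of the transcript that is unique. The length used was that of the merged exons, which can exceed that of 1 transcript. It was 4133 bases against 1273 for the main Gapdh transcript. For Pkm it was 5001 against 2432, and for Hk2 5969 against 5513. The order of levels above and the isoenzyme ratios below were not corrected for shared words or for this difference in length. The exons of Pkm overlap those of Gm49759 over 15.3% of their bases, and reads in that overlap were not counted either.

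**Figure D1:**
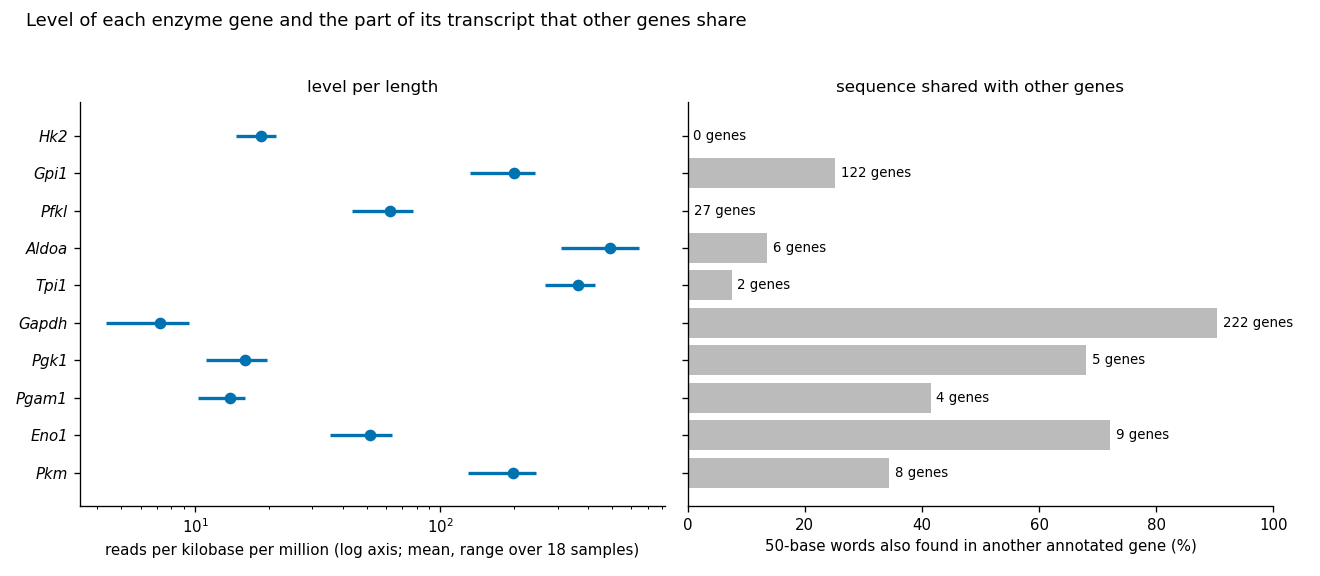
Left, mean level of each of the 10 genes in RPKM on a log axis, with the range over 18 samples. Right, percent of 50-base words of the main transcript that other annotated genes share, with the number of those genes. Gapdh has the lowest level (7.21) and the largest shared part (90.4%).

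By level per length, the listed enzyme was not the highest form for the hexokinase and pyruvate kinase steps. Hkdc1, a hexokinase family member, was 2.85 times Hk2, and Pklr, the liver and red cell form of pyruvate kinase, was 1.19 times Pkm. Both were above their counterparts per length in 18 of 18 samples. In normalized CPM, which are not divided by length, Hkdc1 was also above Hk2 (273 against 111 on average). Pklr was below Pkm by that measure (760 against 986), so which pyruvate kinase message was more abundant is not settled. Pfkp was 0.591 times Pfkl, Hk1 was 0.349 times Hk2, and Aldoc was 0.0575 times Aldoa.

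The 10 genes moved together from sample to sample. After the group means were taken out, the 45 pairs of genes had correlations of log2 CPM from 0.29 (Hk2 with Pgam1) to 0.99 (Aldoa with Pkm), with a median of 0.86 over 18 samples. Pkm followed the mean of the other genes most closely (r = 0.99) and Hk2 least (r = 0.55). These are descriptions over libraries that share mouse, depth and GC profile, so the 10 genes do not amount to 10 separate observations. Mouse 3 was lowest in the mean deviation of the 10 genes in each of the 4 groups, by 0.16 to 0.33 log2 units below the group mean. Norepinephrine mouse 4 was highest of all 18 libraries, at 0.23 above its group mean. Across the 18 libraries the mean deviation and the deviation of the GC slope had a correlation of 0.62, and that with the ribosomal RNA share was 0.15.

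**Figure D2:**
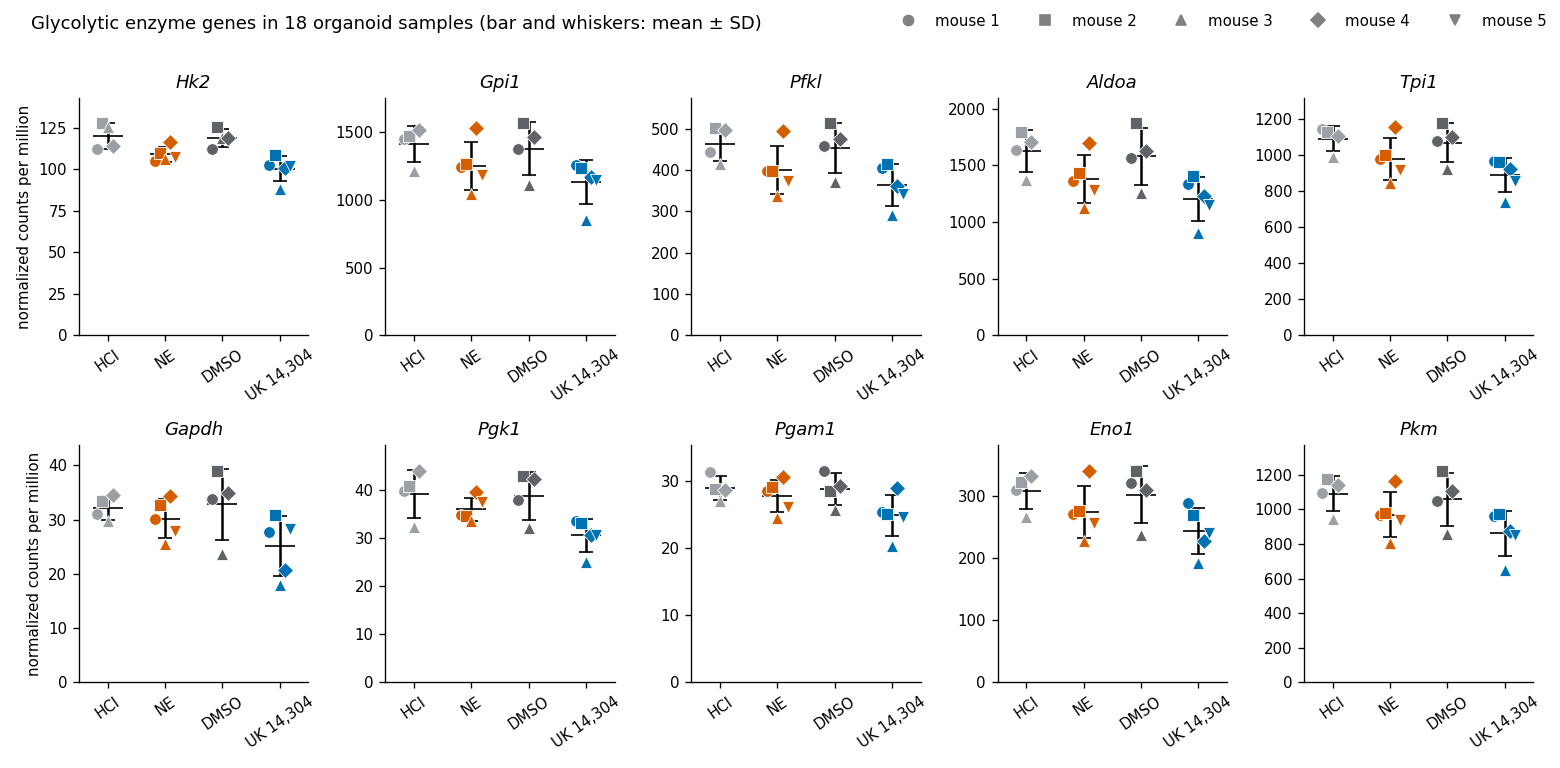
Normalized CPM of the 10 genes in all 18 samples, by group (NE, norepinephrine), with a marker for each mouse and the mean ± SD. Mouse 3 (triangles) is the lowest sample in most panels, and norepinephrine mouse 4 lies with the HCl vehicle samples for most genes.

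To ask whether norepinephrine changed glycolytic messages, it was compared with HCl vehicle. All 10 genes had lower fitted levels with norepinephrine, from -0.24 (Aldoa) to -0.061 (Pgam1) in log2 fold change and a median of -0.16, against -0.0077 for all tested genes. With the GC trend removed the median was -0.10, and -0.099 with the block as well. None of the 10 passed an adjusted p of 0.05, and the background was 0% of all genes. Their adjusted p-values from edgeR were 0.713 to 0.87. At an unadjusted p under 0.05 there was 1 of 10 (Hk2), against 6.18% of all genes, and DESeq2 called 0 of 10. When the mouse was entered as a block, the median was -0.15, still 0 of 10 passed against 0.105% of all genes, and 7 of 10 had an unadjusted p under 0.05 against 8.4% of all genes.

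Aldoa had the largest difference. It measured 1637, 1794, 1371 and 1710 normalized CPM in HCl vehicle mice 1 to 4. With norepinephrine it measured 1364, 1435, 1120, 1699 and 1286 normalized CPM in mice 1 to 5. Norepinephrine mouse 4 was as high as the vehicle samples and the groups overlapped, and of the other 4 samples those of mice 1, 3 and 5 lay below the lowest vehicle sample. The log2 fold change was -0.24 (SE 0.14, edgeR adjusted p = 0.713), and -0.22 with the block (SE 0.06, edgeR adjusted p = 0.432).

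Hk2, which traps glucose as glucose 6-phosphate, measured 112.6, 127.9, 125.8 and 114.1 normalized CPM in HCl vehicle mice 1 to 4. With norepinephrine it was at 105.4, 109.7, 106.4, 116.3 and 107.7 normalized CPM in mice 1 to 5. The sample of mouse 4 was the only one within the vehicle range. The log2 fold change of -0.14 (SE 0.056) was nearly the same with the block, and did not pass in either fit.

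Pfkl, the liver-type phosphofructokinase that commits the sugar to glycolysis, averaged 464 ± 42.5 normalized CPM in vehicle and 400 ± 58.8 in norepinephrine samples (SD, n = 4 and 5). Gpi1, the isomerase of glucose 6-phosphate, had 1415 ± 135 and 1254 ± 178 (SD, n = 4 and 5), and Tpi1 had 1090 ± 69.6 and 977 ± 116 (SD, n = 4 and 5). In the second part of the pathway, Gapdh had 32.1 ± 2.18 and 30.15 ± 3.596 normalized CPM, and Pgk1, which makes the first ATP, had 39.2 ± 4.98 and 35.9 ± 2.46 (SD, n = 4 and 5). Pgam1, the mutase of 3-phosphoglycerate, had 29.0 ± 1.75 and 27.8 ± 2.43 (SD, n = 4 and 5). Eno1, which forms phosphoenolpyruvate, had 307 ± 28.9 and 274 ± 41.4, and Pkm, which makes pyruvate and ATP, had 1091 ± 102.2 and 970 ± 128 (SD, n = 4 and 5). For each of these genes the groups overlapped, and the interval of the fold change without the block held 0.

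The differences were not the same in each mouse, and each rests on 1 library per condition. Within mice, 10 of 10 genes were lower with norepinephrine than with HCl vehicle in mouse 1, 9 in mouse 2 and 9 in mouse 3, with median log2 differences of -0.19, -0.22 and -0.23. In mouse 4 only 4 of 10 were lower and the median difference was 0.019. Pfkl, Aldoa and Gapdh, 3 of 10 genes, were lower in 4 of 4 mice, against 8.28% of all genes. For 0 of 10 did every norepinephrine sample lie below every vehicle sample, against 0.78% of all genes. Without the norepinephrine sample of mouse 4, and with the block, 7 of 10 genes passed, namely Hk2, Gpi1, Pfkl, Aldoa, Tpi1, Eno1 and Pkm, and the background was then 16.7% of all genes. That library was singled out after its values were seen. In mouse 4 the GC slope was 0.13 higher with norepinephrine than with vehicle, whereas it was 0.11 to 0.19 lower in mice 1 to 3. No test of a difference between mice was run, and the part of the GC slope was not tested.

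**Figure D3:**
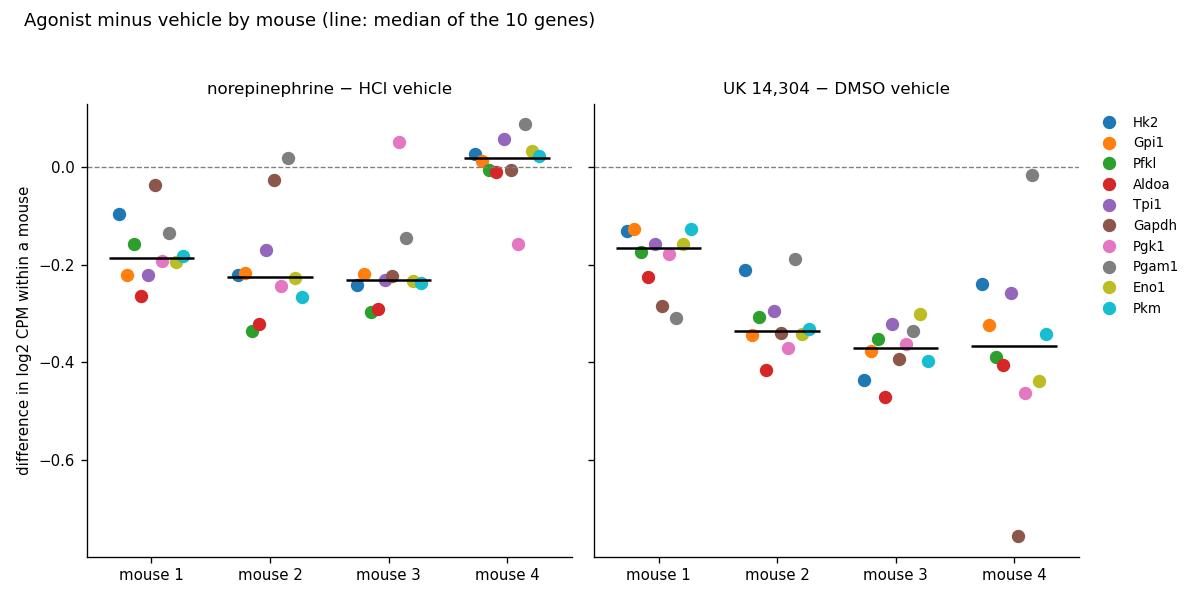
Difference in log2 CPM between agonist and vehicle within each of mice 1 to 4, with a point for each of the 10 genes and a line at their median. With UK 14,304 all points lie below 0, and with norepinephrine the median of mouse 4 is 0.019.

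UK 14,304 was compared with DMSO vehicle to ask the same of an agonist of α2-adrenergic receptors. In the fit that held the mouse as a block, in which mouse 5 had no vehicle of its own to be set against, 7 of the 10 genes fell: Hk2, Gpi1, Pfkl, Aldoa, Tpi1, Pgk1 and Pkm. The background was 1.22% of all genes. Their adjusted p-values from edgeR ran from 0.0031 (Aldoa) to 0.0229 (Pfkl), and those of Eno1 (0.0634), Gapdh (0.076) and Pgam1 (0.127) did not pass. Without the block the fold changes were much the same, but the spread between mice stayed in the error and 0 of 10 passed, against 0.0394% of all genes, with adjusted p-values from edgeR of 0.119 to 0.418. The median log2 fold change of the 10 genes was -0.30 without the block and -0.29 with it, against -0.0041 and -0.0043 for all tested genes. Unadjusted p-values were under 0.05 for 10 of 10 genes in both fits, where the backgrounds were 11.2% and 14.8% of all genes.

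Aldoa fell most among the genes that passed. It measured 1563, 1872, 1254 and 1626 normalized CPM in DMSO vehicle mice 1 to 4. The UK 14,304 samples of mice 1 to 5 measured 1337, 1403, 904.9, 1227 and 1152 normalized CPM. Mouse 3 was lowest in both groups, so the groups overlapped through the vehicle sample of that mouse alone. The log2 fold change with the block was -0.37 (SE 0.06, 95% interval -0.50 to -0.25), a level 0.772 times that of vehicle. Without the block it was -0.39 (SE 0.14, edgeR adjusted p = 0.385).

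Pgk1 measured 37.86, 42.85, 32.05 and 42.16 normalized CPM in DMSO vehicle mice 1 to 4. In UK 14,304 mice 1 to 5 it was at 33.46, 33.12, 24.91, 30.54 and 30.51 normalized CPM. As for Aldoa, the vehicle sample of mouse 3 was the only one within the range of the treated samples. The log2 fold change with the block was -0.35 (SE 0.061, edgeR adjusted p = 0.00569).

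Hk2 was at 112.3, 125.9, 119.1 and 118.8 normalized CPM in DMSO vehicle mice 1 to 4. The UK 14,304 samples stood at 102.5, 108.8, 87.94, 100.6 and 102.3 normalized CPM in mice 1 to 5. It was 1 of 10 genes in which every UK 14,304 sample was below every vehicle sample, a pattern found in 1.78% of all genes. Its log2 fold change was -0.25 with the block (SE 0.051, edgeR adjusted p = 0.0192) and -0.24 without it (SE 0.056, edgeR adjusted p = 0.119). DESeq2 without the block called Hk2 alone of the 10 (DESeq2 adjusted p = 0.0271), against 0.302% of all genes.

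Tpi1 measured 1078, 1175, 920 and 1098 normalized CPM in DMSO vehicle mice 1 to 4. In UK 14,304 mice 1 to 5 it measured 966.9, 957.7, 736.6, 919 and 855.3 normalized CPM. The vehicle sample of mouse 3 again lay within the treated range. Its log2 fold change with the block was -0.25 (SE 0.047, edgeR adjusted p = 0.00809).

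The other genes that passed with the block had like changes. Pfkl averaged 454 ± 60.5 normalized CPM with DMSO vehicle (SD, n = 4) and 363 ± 50.6 with UK 14,304 (SD, n = 5), with a log2 fold change of -0.30. Gpi1 averaged 1379 ± 197 and 1134 ± 163 (SD, n = 4 and 5), and its log2 fold change was -0.28. Pkm averaged 1058 ± 154 and 861 ± 130 (SD, n = 4 and 5), and its log2 fold change was -0.29. In the fits with the block the standard errors of these genes were 0.057 to 0.064, against 0.12 without it.

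Of the 3 genes that did not pass, Pgam1 had the smallest difference of the 10, and Gapdh and Eno1 did not have small ones. Gapdh had the most negative log2 fold change of the 10, -0.40 with the block, and also the widest error (SE 0.10), on 435 to 963 reads in a sample. It measured 33.84, 39.04, 23.64 and 34.92 normalized CPM in DMSO vehicle mice 1 to 4. With UK 14,304 it measured 27.75, 30.82, 17.97, 20.64 and 28.35 normalized CPM in mice 1 to 5. The treated samples of mice 3 and 4 stood below all others. Eno1 had a log2 fold change of -0.30 with the block (SE 0.074), and Pgam1 of -0.20 (SE 0.059).

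Within mice the direction was the same throughout: 10 of 10 genes were lower with UK 14,304 in each of mice 1 to 4, and so lower in 4 of 4 mice, against 15.5% of all genes. The median log2 differences were -0.17, -0.34, -0.37 and -0.37 in mice 1, 2, 3 and 4. The GC slope was also lower with UK 14,304 in each of them, with differences of -0.039, -0.14, -0.049 and -0.28. With the GC trend removed and the block, the median log2 fold change of the 10 genes was -0.23. The part of the GC slope was not tested. The number of genes that passed with the block rested on single libraries. It was 2 without UK 14,304 mouse 3 (0.598% of all genes), 3 without DMSO vehicle mouse 3 (0.617%) and 1, Aldoa, without DMSO vehicle mouse 2 (0.442%). Without all samples of mouse 3 it was 0 of 10, with adjusted p-values from edgeR of 0.0709 (Pgk1) to 0.451 (Pgam1), a background of 0.15% of all genes and a median log2 fold change of -0.27. With the ribosomal RNA split added to the block, 2 of 10 passed, Aldoa and Pgk1, against 0.512% of all genes.

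**Figure D4:**
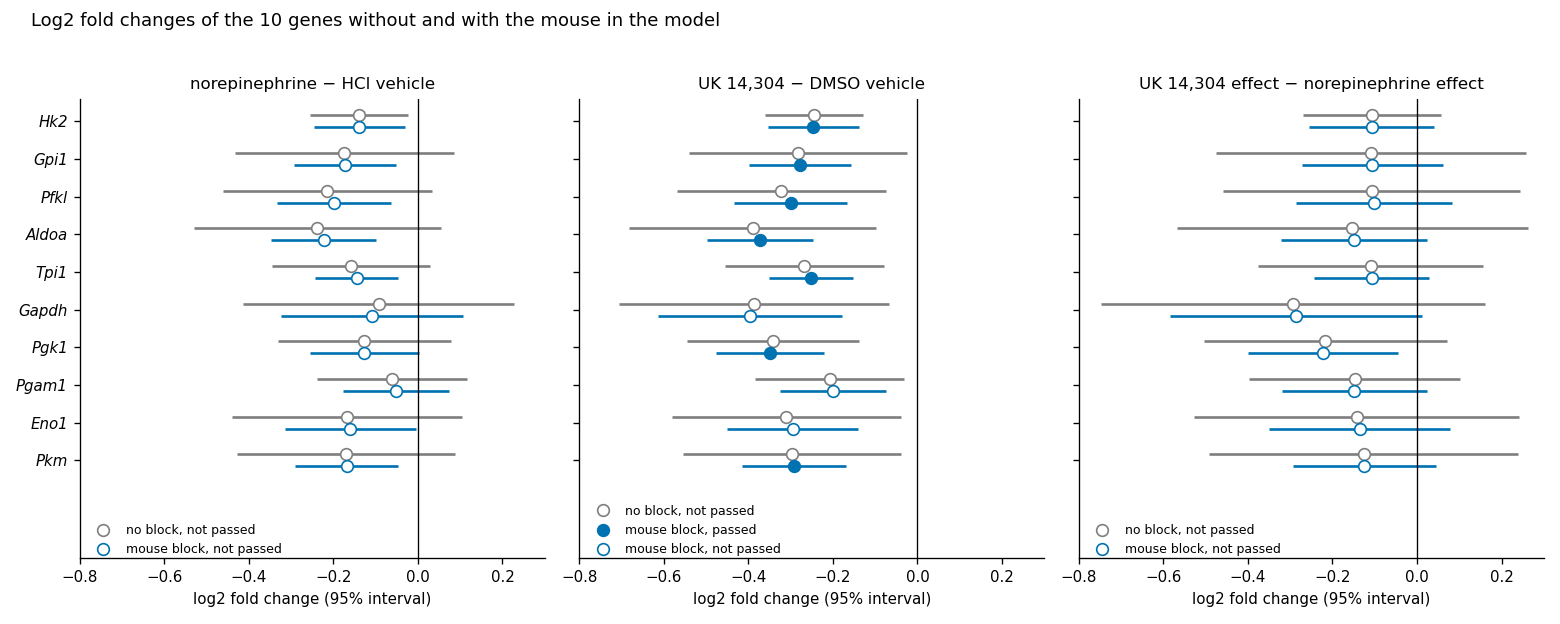
Log2 fold changes of the 10 genes with 95% intervals for norepinephrine, UK 14,304 and the difference between their effects, without (grey) and with (blue) the mouse in the model. Filled points passed an adjusted p of 0.05, which only 7 genes did, all for UK 14,304 with the mouse as a block.

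The difference between the agonists was tested directly, as the UK 14,304 effect minus the norepinephrine effect. It did not pass for any of the 10 genes with or without the block, where the background was 0% of all genes in both fits. Unadjusted p-values were under 0.05 for 0 of 10 without the block, against 1.51% of all genes. With the block this was 1 of 10 (Pgk1), against 2.66%. DESeq2 called 0 of 10 with and without the block. All 10 estimates were negative, with a median of -0.13. For Aldoa the difference was -0.15 with a 95% interval of -0.32 to 0.023 with the block, and for Tpi1 it was -0.11 with an interval of -0.24 to 0.03. Gapdh had the largest, -0.29, with an interval of -0.58 to 0.011. For Pgk1 it was -0.22 with an interval of -0.40 to -0.044 (edgeR adjusted p = 1). The data therefore neither separated the agonists on these genes nor bounded their difference closely, and both effects had been measured against vehicles from the same mice.

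The remaining isoenzymes gave a mixed picture. Of 17 listed, 12 were tested. With norepinephrine 0 of 12 passed in either fit of edgeR. Unadjusted p-values were under 0.05 for 0 without and 4 with the block, against 6.18% and 8.4% of all genes. With UK 14,304, 3 of 12 fell with the block and 0 without it, where 3 had an unadjusted p under 0.05. Over all genes these shares were 1.22% called with the block and 11.2% under the unadjusted p without it. With the block the count was 1 without DMSO vehicle mouse 2 (0.442% of all genes) and 0 without mouse 3 (0.15%). The 3 were Hk1, a hexokinase of most tissues (log2 fold change -0.45, SE 0.072), Aldoc, the brain-type aldolase (-0.41, SE 0.07), and Pfkp, the platelet-type phosphofructokinase (-0.25, SE 0.047). Pklr stood at -0.13 (edgeR adjusted p = 0.279).

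Of 9 tested genes for sugar and lactate transport and lactate dehydrogenase, 4 fell with UK 14,304 and the block, against 1.22% of all genes. With the block the count was 1 without DMSO vehicle mouse 2 (0.442% of all genes), 1 with the ribosomal RNA split (0.512%) and 0 without mouse 3 (0.15%). Without the block 0 passed and 4 had an unadjusted p under 0.05, against 11.2% of all genes. With norepinephrine 0 passed, and the unadjusted count was 0 without the block (6.18%) and 4 with it (8.4%). Slc16a3, a lactate exporter, had a log2 fold change of -0.44 (SE 0.083, edgeR adjusted p = 0.0126). Slc2a1, the basal glucose transporter, had -0.37 (SE 0.068, edgeR adjusted p = 0.00727). Bsg, the chaperone of lactate carriers, had -0.25 (SE 0.043), and Ldha, which turns pyruvate into lactate and was highest of the list per length (541 RPKM), had -0.23 (SE 0.046). Slc5a1, the sodium-coupled glucose carrier of the brush border, had -0.14 (edgeR adjusted p = 0.101).

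Genes that set flux and pyruvate entry showed no common direction. The median log2 fold change of the 17 tested was 0.0078 with UK 14,304 and the block. Only Pfkfb3, which makes the activator fructose 2,6-bisphosphate, fell (-0.37, SE 0.065, edgeR adjusted p = 0.00544). This was 1 of 17, against 1.22% of all genes. Pdha1, a subunit of pyruvate dehydrogenase and the highest of the list per length, had -0.0043. Of the 7 genes of gluconeogenesis, 0 passed with either agonist in either fit, and Fbp2, the highest per length, had -0.058 with UK 14,304 and the block. In those fits 1 of the 7 had an unadjusted p under 0.05 with norepinephrine, and 3 without and 5 with the block had one with UK 14,304. Without and with the block, these shares over all genes were 6.18% and 8.4% with norepinephrine. They were 11.2% and 14.8% with UK 14,304.

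Of 19 genes of pathways that branch from glycolysis, 3 fell with UK 14,304 and the block and 0 passed otherwise. Without the block 4 had an unadjusted p under 0.05 with UK 14,304, against 11.2% of all genes. With norepinephrine this count was 1 without the block (6.18%) and 3 with it (8.4%). Over all genes 1.22% were called with UK 14,304 and the block. The count was 1 of 19 without DMSO vehicle mouse 2 (0.442% of all genes). It was 0 with the ribosomal RNA split (0.512%) and 0 without mouse 3 (0.15%). The 3 were Psat1 of serine synthesis (log2 fold change -0.21), and Pgm1 (-0.20) and Gys1 (-0.24) of glycogen synthesis. Taldo1 of the pentose phosphate pathway, the highest of the list per length, had -0.072. Among 10 genes for transcription factors of glycolytic genes and their regulators, 2 fell with UK 14,304 and the block, Mycn (-0.39) and Egln1 (-0.16), which encodes an oxygen-sensing prolyl hydroxylase. Those 2 of 10 stand against 1.22% of all genes. That count was 1 without DMSO vehicle mouse 2 (0.442%) or with the ribosomal RNA split (0.512%), and 0 without mouse 3 (0.15%). Myc, the highest of that list per length, had -0.0044, and Hif1a had 0.20 (edgeR adjusted p = 0.179).

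Of 13 tested hypoxia-responsive genes outside glycolysis, 8 fell with UK 14,304 and the block, against 1.22% of all genes. Without the block 0 passed and 7 had an unadjusted p under 0.05, against 11.2% of all genes. With norepinephrine 0 passed, and the unadjusted count was 0 without the block (6.18% of all genes) and 6 with it (8.4%). The median log2 fold change with UK 14,304 and the block was -0.27, near that of the 10 enzymes. The 4 with the largest changes were Ankrd37 (-0.59, SE 0.08), Adm, which encodes a vasodilator peptide (-0.52, SE 0.13), P4ha2, a collagen prolyl hydroxylase (-0.42, SE 0.073), and Egln3, an oxygen-sensing prolyl hydroxylase (-0.38, SE 0.062). Ndrg1, the highest per length, had -0.25 (SE 0.043). With UK 14,304 and the block the count was 2 without DMSO vehicle mouse 2 (0.442% of all genes). It was 1 without mouse 3 (0.15%) and 4 with the ribosomal RNA split (0.512%). With norepinephrine the median was -0.12, and all 13 estimates were negative.

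**Figure D5:**
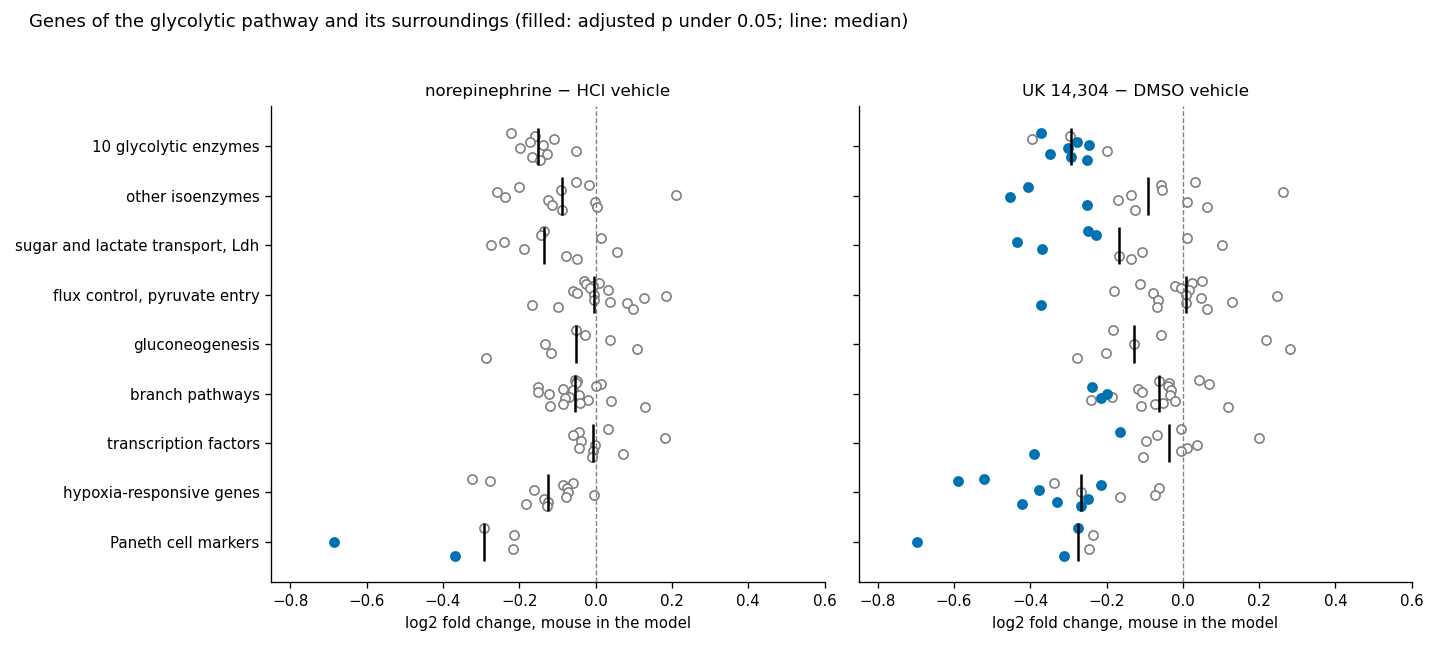
Log2 fold changes with the mouse in the model for each tested gene of 9 lists, with a line at the median of each list. Filled points passed an adjusted p of 0.05. With UK 14,304 the medians of the 10 enzymes and of the hypoxia-responsive genes are -0.29 and -0.27, and that of flux control is 0.0078.

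Markers of the cell types were read beside these results, since a change in the mix of cells and a change in RNA per cell cannot be told apart in bulk RNA. All 5 Paneth cell markers had negative estimates with both agonists. With the block 2 fell with norepinephrine (Lyz1 and Defa22), against 0.105% of all genes, and 3 with UK 14,304 (also Ang4), against 1.22%. Without the block 0 passed and 0 had an unadjusted p under 0.05. That unadjusted share over all genes was 6.18% with norepinephrine and 11.2% with UK 14,304. Defa24 was the highest of them per length. Their summed level was 2334 to 3574 normalized CPM with HCl vehicle and 1906 to 2666 with norepinephrine, and 2227 to 3443 with DMSO vehicle and 1941 to 2890 with UK 14,304. Of 4 goblet cell markers, among which Tff3 was highest, only Agr2 fell, with UK 14,304 and the block (log2 fold change -0.16). The share of all genes was again 1.22%. Without mouse 3, and with the block, the counts with UK 14,304 were 1 of 5 Paneth and 0 of 4 goblet cell markers. The background was then 0.15% of all genes. The 4 enterocyte markers, led by Fabp1, summed to 6748 to 10670 normalized CPM with DMSO vehicle and 6005 to 9024 with UK 14,304, and 0 of 4 passed. None of 6 stem cell markers, 6 proliferation markers, 5 enteroendocrine cell markers, 5 epithelial markers, 2 tested tuft cell markers and 3 tested non-epithelial markers passed for either agonist in either fit of edgeR. Unadjusted p-values were under 0.05 for 3 of 6 proliferation markers with UK 14,304 in both fits. Over all genes these shares were 11.2% without and 14.8% with the block. The 3 markers did not point one way: with the block Mki67 and Top2a had estimates of 0.16 (edgeR adjusted p = 0.0893 and 0.129), and Pcna had -0.078 (edgeR adjusted p = 0.316). Of the 6, the estimates of Pcna, Cdk1 and Mcm5 were negative. The highest of these lists per length were Olfm4, Mki67, Chgb, Epcam, Trpm5 and Cd68. The summed proliferation markers were 1681 to 1804 normalized CPM with DMSO vehicle and 1811 to 2037 with UK 14,304. The part of these markers in the lower enzyme messages was not tested.

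The 8 other genes that followed the mean of the 10 most closely within groups were Ldha (r = 0.99), Gys1 (r = 0.98), Aldoc (r = 0.97), Zbtb7b (r = 0.97), Pgm1 (r = 0.97), B4galnt3 (r = 0.97), Plin3 (r = 0.97) and Cdkn1a (r = 0.96), over 18 samples. They are named as a description of the residual pattern. Of these, Ldha, Gys1, Aldoc, Pgm1 and Cdkn1a, an inhibitor of the cell cycle, fell with UK 14,304 and the block, and Zbtb7b (log2 fold change -0.089 without the block), B4galnt3 and Plin3 did not pass.

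Because the enzymes moved together, their promoters were searched for ACGTG, the core of the element that hypoxia-inducible factors bind, on both strands. The windows ran from 250 bases before to 50 bases after a transcript start, taken from RefSeq on GRCm38.p6. They held the letters for 6 of the 10 genes, Hk2, Aldoa, Gapdh, Pgk1, Pgam1 and Pkm (60%), and for 21.8% of 27025 genes with a window. CACGTG, the binding site of the Myc family, holds the letters on both strands at once. The matches that lay before the start are shown with 15 bases on either side, 5′ to 3′ on the strand of the gene, with ACGTG or its reverse complement CACGT in capitals.
Hk2, chr6:82774661-82774695, minus strand: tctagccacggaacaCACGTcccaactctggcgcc
Hk2, chr6:82774487-82774521, minus strand: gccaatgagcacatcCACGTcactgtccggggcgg
Aldoa, chr7:126799361-126799395, minus strand: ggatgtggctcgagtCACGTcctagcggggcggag
Pgk1, chrX:106186935-106186988, plus strand: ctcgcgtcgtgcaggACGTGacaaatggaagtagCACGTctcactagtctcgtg
Pgam1, chr19:41911742-41911776, plus strand: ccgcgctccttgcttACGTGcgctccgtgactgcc
Pkm, chr9:59657137-59657171, plus strand: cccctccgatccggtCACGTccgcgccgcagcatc

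Hk2 and Pgk1 each had a pair of matches before the start. In Pgk1 they lie in opposite orientation within 1 stretch. The windows of Gpi1, Pfkl, Tpi1 and Eno1 did not hold the letters, and of these Gpi1, Pfkl and Tpi1 fell with UK 14,304 and the block. Among the 6 genes with a match, Hk2, Aldoa, Pgk1 and Pkm fell, and Gapdh and Pgam1 did not pass. A match describes the sequence and does not show that a factor binds there.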

How the data were processed

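Total RNA of 18 mouse organoid samples (RNA integrity number over 8) was made into mRNA libraries with the KAPA mRNA HyperPrep kit. The authors sequenced 50-base single reads, mapped them to GRCm38 with STAR 2.7.3 and deposited raw read counts per gene. The file header names featureCounts 2.0.1 with Ensembl 102, and the methods name Subread 1.6.4. Reads that mapped to several places or overlapped several genes were not counted, and strand was not used. The table also lists exon lengths in bases, deposited with the counts.

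Symbols were matched for 55141 of 55487 identifiers. Counts were tested with edgeR 4.0.16 (R 4.3.3): filterByExpr by group, TMM normalization and the robust quasi-likelihood test in 1 model of the 4 groups, with Benjamini-Hochberg adjustment over 15247 genes at 0.05. The same model with the mouse as a block, DESeq2 1.42.0, GC and ribosomal RNA terms and leaving out samples were alternatives. The script was tested on simulated data. CPM are TMM-scaled. Log2 CPM used a prior count of 2. Within-group replicate pairs differed by 2.07 to 7.88 times the sampling noise, so no library was taken for a copy. The mouse numbers come from the titles and were read as marking the donor, which neither the titles nor the methods state. Deviations of same-mouse samples correlated at 0.28 on average, with a range of -0.21 to 0.52 over 25 pairs, against -0.072 for different mice. P-values of the fit without the block measure the spread between cultures of 4 or 5 mice. Those of the fit with the block measure the spread left once the level of each mouse is taken out. In both fits this spread was pooled over the 4 groups.

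The members and lists were chosen with earlier results of these data known. For each list besides the 10 enzymes, the text names the gene with the highest level per length and those that passed (at most 4, by size of change), and also a few others chosen after their values were seen (Hkdc1, Pklr, Slc5a1, Hif1a and the isoenzymes set beside their members). The 8 genes with the highest residual correlation are also named. Some genes that this rule selects are not reported here.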

Additional observations from a re-analysis of the deposited data

Results flagged for a closer look

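For 1 of 40 combinations of gene and group, a sample stood apart from the rest of its group. Gpi1 in UK 14,304 mouse 3 was at 853.4 normalized CPM, with the next lowest sample at 1150, a gap of 0.729 of the group's range where 0.71 is the limit for 5 samples. Chance alone would mark about 1 in 20 groups, or 2 of 40. The other genes were also low in that library, and mouse 3 was lowest in the mean of the 10 genes in all 4 groups. No difference between the 2 agonist effects passed for any of the 10 genes.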

How the results depend on the processing

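In the main edgeR fit, without the replicate block, 0 of the 10 genes passed for either agonist or for the difference between them. This was also so when any 1 sample was left out (0 to 0). For UK 14,304 the count depended on the block, and the share of all genes called also moved. With the mouse as a block 7 passed (1.22% of all genes), and 9 with the GC trend removed as well (4.11%). It was 9 with only UK 14,304 and DMSO vehicle and the block. With the ribosomal RNA split and the block it was 2 (0.512%). DESeq2 gave 1 (0.302% of all genes) and, with the block, 9. Pooling both vehicles in edgeR without the block gave 2 (Hk2 and Pgk1). With the block, leaving out 1 sample gave 1 (without DMSO vehicle mouse 2, 0.442% of all genes) to 10 (without norepinephrine mouse 4, 8.08%). It gave 6 without DMSO vehicle mouse 1 or UK 14,304 mouse 2. Some settings, all with the block, were chosen after seeing the data. They gave 8 with the GC trend removed and the ribosomal RNA split, and 8 without mouse 5. Without mouse 4 the count was 9 (3.83% of all genes), and without mouse 3 it was 0 (0.15%). For norepinephrine the count stayed at 0 except in some fits with the block. It was 7 without norepinephrine mouse 4 (the upper end of 0 to 7, 16.7% of all genes). Without mouse 4 it was also 7 (15.1%). The cause was not tested. Counts over all genes moved as well, from 0 to 2529 for norepinephrine and from 1 to 1225 for UK 14,304. For UK 14,304 it was 68 to 1225 genes when 1 sample was left out with the block. In the settings other than leaving out 1 sample it was 1 to 626. Counts of the 10 genes given here without a share of all genes therefore cannot be read against a background.

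All 10 fold changes stayed below 0 in each setting and comparison. Without the block, leaving out 1 sample gave medians from -0.22 to -0.10 for norepinephrine and from -0.39 to -0.22 for UK 14,304. Removing the GC trend gave -0.10 and -0.24. The difference between the agonists did not pass in any setting for any of the 10 genes. Gapdh, Pgk1 and Pgam1 had the fewest reads of the 10 genes.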
